A study of Mus musculus with 42 samples.

Results

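Livers of mice fed AS-703026 (pimasertib, an inhibitor of the kinase MEK) were compared with livers of mice fed enzastaurin (an inhibitor of protein kinase C) or GDC-0941 (pictilisib, an inhibitor of phosphoinositide 3-kinase). The comparison takes the 4 AS-703026 liver libraries against the pooled 8 libraries of the other 2 compounds, 12 of the 42 libraries of the series, and runs over the 9490 genes with enough counts to test, of 43629 in the table. The animals were UM-HET3 males, from a stock of mixed genetic background, fed a diet with 1 compound from 3 months of age for 1 month, and were 4 months old. AS-703026 was given at 30 ppm of the diet, enzastaurin at 75 ppm and GDC-0941 at 50 ppm, with 4 animals' livers each, which the submitters call biological replicates. None of the 42 libraries is a liver from control diet. A difference therefore says that AS-703026 livers stood above or below the livers of 2 other drugs, and cannot be assigned to the side that moved from an untreated level.

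MEK is the kinase that activates ERK, the last step of a relay that carries signals from growth factor receptors to the nucleus, and cells answer ERK activity by making feedback inhibitors such as the dual-specificity phosphatases and Sprouty proteins. The liver makes most plasma proteins, among them clotting factors and complement, and in inflammation interleukin 6 and interleukin 1 act on hepatocytes through STAT3 and NF-kB to raise the acute phase proteins while many metabolic enzymes are made less. Metallothioneins, small cysteine-rich proteins that bind zinc and copper, belong to the genes that such signals, glucocorticoids and metals raise. In male rodents a further set of hepatocyte genes, including major urinary proteins and several steroid-metabolising enzymes, depends on the pulses of growth hormone typical of males.

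The 12 libraries held 1084591 to 4361115 counts (median 2792768) and the shallowest was AS-703026 replicate 2. The depth of a library limits the precision of its low values. Levels are given as CPM, a gene's counts scaled to a common library size, after TMM scaling. CEL-seq reads the 3′ end of each transcript, so CPM is not divided by gene length here and levels are compared within a gene. The first principal component (24.5% of the variance) placed the AS-703026 libraries at -10.5 to -40.1 and the others at 8.44 to 16.4. Along it, AS-703026 replicates 1 and 3 lay farthest out and replicate 2 nearest to the others. On the second component (14.2%) replicate 2 stood farthest from 0 of all 12 libraries, at -41.5. The mitochondrial share of counts overlapped between the groups. Satellite-like gene models, 13 predicted genes in repeats, did not overlap: they took 0.857% to 1.77% of the counts in AS-703026 livers and 0.124% to 0.645% in the others, and 11 of the 12 tested were higher with AS-703026 (7 without AS-703026 replicate 3). That share cannot be told apart from the compound in this design. Hepatocyte markers were high in every library, with their 12 genes summing to 59580 to 85600 CPM with AS-703026 and 86000 to 104500 CPM in the others. One enzastaurin library, replicate 2, held adipocyte transcripts, with 480 CPM over 6 markers against at most 18.4 in the other 11 libraries. Without it 412 genes passed between AS-703026 and the pool, as against 445 with it.

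In all, 445 genes differed between AS-703026 and the other 2 compounds (4.69% of those tested, edgeR quasi-likelihood, adjusted p under 0.05), 276 higher (2.91%) and 169 lower (1.78%) with AS-703026. Differences of 2-fold or more were commoner upward, with 132 genes higher and 42 lower. The 4 AS-703026 libraries lay wholly above the 8 others for 206 genes (2.17%) and wholly below them for 162 (1.71%). The number of calls depended on single AS-703026 libraries: 256 genes passed without replicate 1, 224 without replicate 3 and 525 without replicate 2, and 184 passed in each of the 12 fits that left out 1 library. With the log2 satellite-like share as a covariate, 18 genes passed. Among the called genes were 24 of the 26 measured acute phase proteins, all higher, whose summed level was 50300 to 196500 CPM with AS-703026 and 29720 to 37730 CPM in the others. The results given here are mainly for other genes. Counts of called genes in the lists below are to be read beside the shares over all genes.

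**Figure D1:**
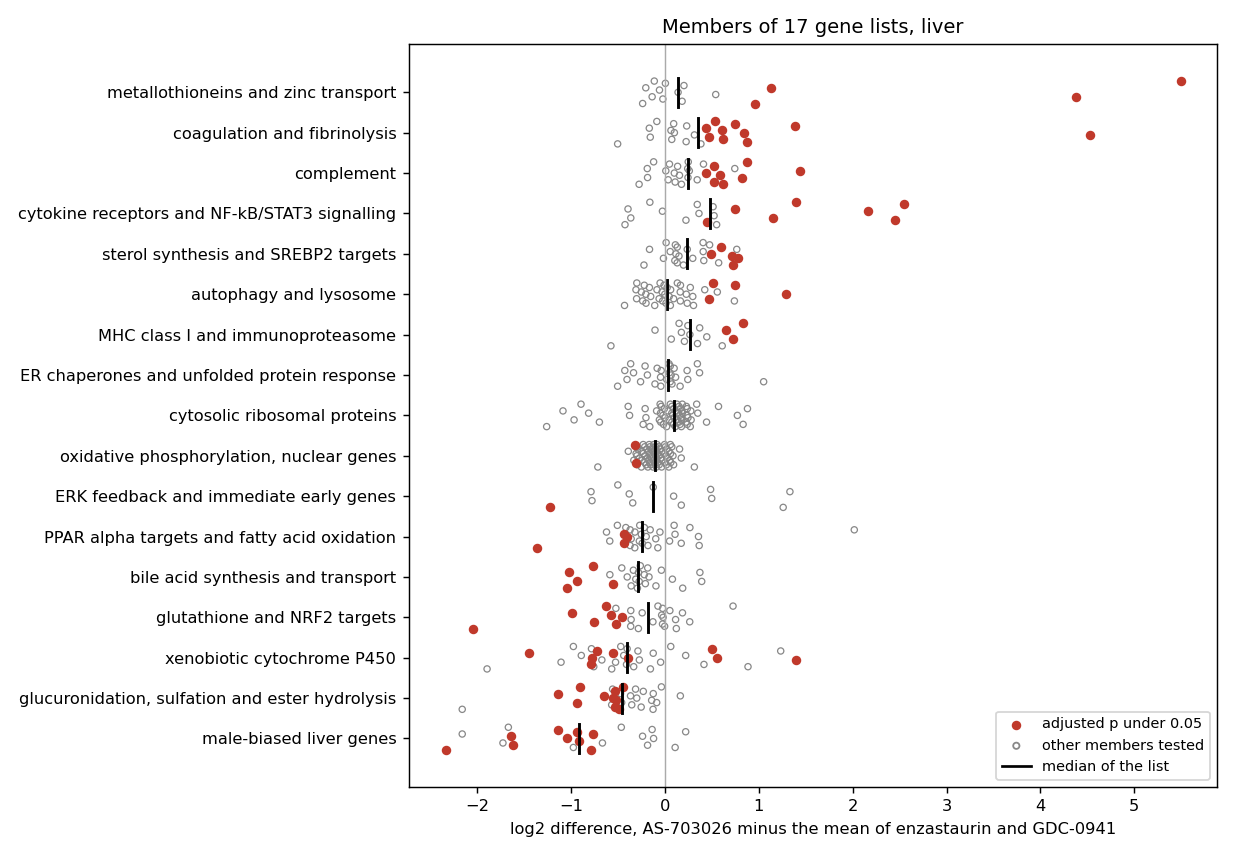
Each point is a gene of 1 of 17 gene lists, placed by its log2 difference in liver between AS-703026 and the mean of enzastaurin and GDC-0941 (x axis). Filled points passed an adjusted p under 0.05, open points were tested and did not pass, and the black bar is the median of the list. Called members of the clotting, complement, cytokine and zinc lists lie to the right of 0, and those of the bile acid, conjugation and male-biased lists to the left, with the lowest median (-0.92) in the male-biased list.

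Metallothionein genes were far higher with AS-703026 than with the other 2 compounds. Mt1 and Mt2, which bind zinc and copper, lie next to each other on chromosome 8, and the bases before their RefSeq start sites are shown because both genes moved together. Capitals mark matches to the metal response element, the site of the zinc-sensing factor MTF1, searched as TGCGCNC or TGCACNC on both strands.
Mt1: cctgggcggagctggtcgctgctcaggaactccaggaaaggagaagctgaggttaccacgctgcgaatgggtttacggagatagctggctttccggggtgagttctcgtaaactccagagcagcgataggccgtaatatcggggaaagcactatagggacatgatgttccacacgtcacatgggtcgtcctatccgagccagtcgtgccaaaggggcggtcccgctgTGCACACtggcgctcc
Mt2: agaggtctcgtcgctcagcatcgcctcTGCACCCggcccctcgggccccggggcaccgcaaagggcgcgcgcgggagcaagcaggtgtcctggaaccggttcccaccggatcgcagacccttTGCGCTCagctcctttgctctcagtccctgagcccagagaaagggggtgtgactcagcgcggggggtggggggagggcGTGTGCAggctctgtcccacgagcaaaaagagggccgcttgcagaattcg
The Mt1 stretch is chr8:94178839-94179081 and the Mt2 stretch chr8:94172368-94172617, both on the plus strand of GRCm38.p6, and the Mt1 stretch ends where the GENCODE M21 transcript begins. Mt1 had 1 match and Mt2 had 3 in the 250 bases before the RefSeq start, as against at least 1 match in 21.4% of all 32851 RefSeq promoters of that length. A match is a run of letters and does not show that the site was used. Bases after the annotated start and farther upstream were not searched. The 1 and 3 matches are therefore not a count of all such sites of either gene.

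Mt1 stood at 3436, 670, 4235 and 1102 CPM in AS-703026 replicates 1 to 4 and between 29.2 and 378 CPM (median 77.6) in the 8 others. Mt2 stood at 4211, 432, 3821 and 1069 CPM against 7.52 to 158 CPM (median 35.1). Every AS-703026 library exceeded every other library for both genes, and within AS-703026 replicates 1 and 3 were high and replicates 2 and 4 lower. The log2 differences were 4.38 ± 0.59 (SE, adjusted p = 0.000518) for Mt1 and 5.49 ± 0.73 (adjusted p = 0.000501) for Mt2. A predicted gene, Gm45774, overlaps Mt2 on the opposite strand, and since the strand setting of the counting is not given, reads from the 2 cannot be told apart. Both genes also varied among the other compounds, from 29.2 CPM in GDC-0941 replicate 2 to 378 CPM in GDC-0941 replicate 4 for Mt1.

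Of 15 genes tested for metallothioneins and zinc transport, 4 were higher and none was lower, beside 2.91% of all genes higher. The other two were importers that bring zinc into the cytosol. Slc39a14 (ZIP14), which also carries iron, read 102, 75.2, 103 and 100 CPM with AS-703026 and 36.4 to 68.7 CPM (median 45.3) in the others, a log2 difference of 0.96 ± 0.15 (adjusted p = 0.0018). Slc39a1 (ZIP1) read 106, 123, 79.2 and 91.0 CPM against 31.7 to 70.1 CPM (1.13 ± 0.19, adjusted p = 0.00258). Neither overlapped between the groups. The other 11 tested did not pass, and Mtf1, the metal-responsive factor itself, showed a log2 difference of 0.00.

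**Figure D2:**
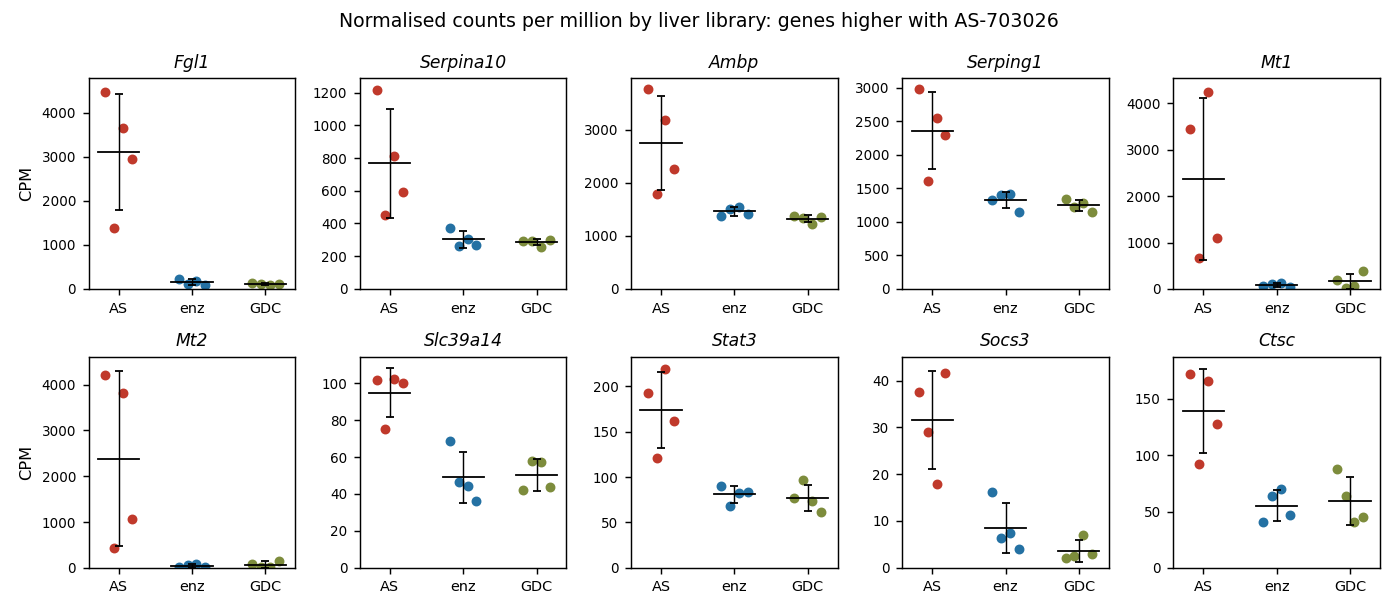
Normalised CPM (y axis, from 0) of 10 genes in each liver library, by compound (AS, AS-703026; enz, enzastaurin; GDC, GDC-0941). Points are the 4 libraries of a group, the bar is their mean and the whiskers are 1 SD. The 4 AS-703026 points lie above all 8 others in each panel, and for Mt1 and Mt2 replicates 1 and 3 stand well above replicates 2 and 4.

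Clotting and fibrinolysis genes moved together: 10 of 22 tested passed, all higher (45.5%, beside 2.91% of all genes). The list median was 0.35 against -0.00 over all genes. All 10, and 157 of the 276 genes called higher, separated the groups fully. Fgl1 (chr8:41191434-41215156), a fibrinogen-like protein secreted by hepatocytes and counted in this list, had the smallest adjusted p of any gene. Whether Fgl1 acts in clotting was not tested. It read 4469, 1384, 3667 and 2945 CPM with AS-703026 and 82.9 to 236 CPM (median 121) in the others. The lowest AS-703026 library lay far above the highest of the other 8. The log2 difference was 4.53 ± 0.28 (adjusted p = 8.31e-07), between 4.31 and 4.78 when any 1 library was left out. Serpina10, the protein Z-dependent protease inhibitor that restrains factor Xa, read 1213, 450, 812 and 593 CPM against 259 to 371 CPM (median 293), a log2 difference of 1.39 ± 0.19 (adjusted p = 0.000637).

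The remaining 8 ranged from 0.44 to 0.87 on the log2 scale and covered both arms of the system. F7 and F10, proteases of the clotting cascade, were higher by 0.53 ± 0.10 (adjusted p = 0.00495) and 0.47 ± 0.08 (0.00513). F7 was also one of the most even, at 142, 141, 149 and 125 CPM with AS-703026 and 84.2 to 110 CPM in the others. Pros1, the protein S cofactor that limits clotting, was higher by 0.84 ± 0.16 and Cpb2, the carboxypeptidase that slows fibrinolysis, by 0.87 ± 0.16. Kng1 and Kng2, the kininogens that release bradykinin, were higher by 0.61 ± 0.12 and 0.75 ± 0.13. They are close paralogs, and reads may have been split between them. Vtn, or vitronectin, which steadies the plasminogen activator inhibitor and also blocks the complement pore, was higher by 0.62 ± 0.11. Hrg, the histidine-rich glycoprotein, was the weakest (0.44 ± 0.10, adjusted p = 0.0162) and the only one of the 10 that missed the threshold when AS-703026 replicate 1 or 3 was left out. The vitamin K-dependent factors F2 (0.07) and F9 (0.31), plasminogen (Plg, 0.23) and antithrombin (Serpinc1, 0.06) did not pass. Fibrinogen chains belong to the acute phase list and are not counted here.

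Among complement genes 8 of 27 tested were higher and none lower (list median 0.25). Vtn, described above, is counted in both lists. Serping1, the inhibitor of the C1 proteases and of kallikrein, read 2987, 1610, 2543 and 2299 CPM with AS-703026 and 1148 to 1411 CPM in the others, with no overlap (0.87 ± 0.13, adjusted p = 0.00146). Clu, or clusterin, a chaperone that holds back the membrane attack complex, was higher by 0.58 ± 0.10 and C8a, a chain of that complex, by 0.52 ± 0.09. C4b, Mbl1 and Cfi passed in the full set but not without AS-703026 replicate 1 or replicate 3, each of which left 5 of the 8. C2, C6 and Hc (C5) had log2 differences of 0.16, -0.18 and 0.05 and did not pass. C4b has a near-identical neighbour, C4a, and its reads are uncertain for that reason.

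Secreted carriers went both ways. Of 34 tested carrier and lipoprotein genes 4 were higher and 3 lower (20.6% called, beside 4.69% of all genes). Ambp, which encodes the precursor of alpha-1-microglobulin and bikunin, read 3763, 1794, 3186 and 2261 CPM against 1233 to 1546 CPM (0.98 ± 0.15, adjusted p = 0.00163) and did not overlap. It was the only one of the 7 that passed in all 12 fits with a library left out. The 3 lower calls were lost, and 1 to 4 higher ones remained in number, without AS-703026 replicate 1 or 3, enzastaurin replicate 1, 2 or 4, or GDC-0941 replicate 1, 3 or 4, and 1 lower call was left without AS-703026 replicate 4. Apoc1 (-0.47), Apoc4 (-0.43) and Rbp4 (-0.49), which carry lipid or retinol, were the 3 lower ones. Albumin (Alb) averaged 14168 CPM with AS-703026, 23710 with enzastaurin and 23251 with GDC-0941, a log2 difference of -0.73 that did not pass (adjusted p = 0.0659).

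Genes of cytokine receptors and of STAT3 and NF-kB signalling were also higher: 7 of 18 tested passed, none lower, with a list median of 0.48. A link between these genes and the secreted proteins was not tested. Il1r1, the receptor for interleukin 1, read 94.4, 29.0, 66.4 and 49.3 CPM with AS-703026 and 7.99 to 24.4 CPM (median 13.4) in the others (2.16 ± 0.25, adjusted p = 0.000166). Stat3, the transcription factor that interleukin 6 activates, read 193, 121, 220 and 162 CPM against 61.5 to 96.5 CPM (1.15 ± 0.14, adjusted p = 0.000299). Socs3, the feedback inhibitor induced by STAT3, read 37.6, 29.0, 17.9 and 41.7 CPM against 2.00 to 16.2 CPM (2.55 ± 0.33, adjusted p = 0.000435). The groups did not overlap for these 3 genes, although AS-703026 replicate 3, which was high for Stat3, was the lowest of its group for Socs3. Tifa, an adaptor that leads to NF-kB, and Nfkbiz, a nuclear co-regulator of NF-kB, were higher by 2.45 ± 0.36 and 1.39 ± 0.20. The value of Tifa was 1.81 without AS-703026 replicate 1, its highest library. Il6st, the shared receptor chain gp130, and Cebpb, a partner of STAT3 at acute phase promoters, passed at 0.45 and 0.74 but not in all fits with a library left out. The receptor Il6ra (0.52) and Nfkbia (0.36) did not pass.

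Some markers of blood cells moved with these genes. S100a8 and S100a9, the calprotectin subunits of neutrophils and monocytes, were the only 2 of 12 neutrophil markers with enough counts to test. S100a9 read 52.9, 19.0, 31.3 and 29.5 CPM with AS-703026 and 0.798 to 5.20 CPM in the others (4.11 ± 0.31, adjusted p = 8.39e-06). The summed 12 markers ran from 29.9 to 87.4 CPM with AS-703026 and from 2.18 to 10.9 CPM in the others, while the granule genes Elane, Mpo, Camp, Ngp and Ltf averaged under 1 CPM in each group. Prtn3, encoding a serine protease known from neutrophil granules, read 211, 3.63, 109 and 63.2 CPM with AS-703026 and at most 0.818 CPM in the others (7.67 ± 0.74, adjusted p = 4.07e-05). With so few reads in the other livers the fitted size depends on the prior count of the fit. S100a8 (at most 2.13 CPM in the other livers), S100a9 and Prtn3 had enough counts to test only through the AS-703026 libraries. The filter on counts thus favoured a higher call for them, and their p-values are to be read with that limit. Prtn3 was highest in AS-703026 replicates 1 and 3 and lowest in replicate 2. All 4 tested globin genes of red cells were higher as well, while 1 passed against GDC-0941 alone. Without AS-703026 replicate 4 both alpha globin genes, Hba-a1 and Hba-a2, lost their calls, and Hba-a1 also without replicate 3. Hbb-bt read 638, 686, 615 and 1462 CPM against 163 to 504 CPM (1.53 ± 0.27, adjusted p = 0.00418), though the globin genes are near-identical copies whose reads may be shared. Of 9 monocyte markers 3 could be tested and 2 were higher, Fn1 (0.47, adjusted p = 0.0139) and Plac8 (0.84, adjusted p = 0.0346), and the 9 summed to 943 to 1292 CPM with AS-703026 and 735 to 871 CPM in the others. Fn1, or fibronectin, is also made by hepatocytes. Fn1 lost its call without AS-703026 replicate 3, and Plac8 without any of 7 libraries, AS-703026 replicates 1 and 3 among them. Of T cell, B cell, plasma cell and platelet markers 1 each could be tested, and none passed.

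Kupffer cell markers had a median log2 difference of 0.49 over 12 tested, and 11 of the 12 differences were positive. C1qb passed (0.64, adjusted p = 0.0462), though not in 8 of the 12 fits with a library left out, and against GDC-0941 alone 3 of the 12 passed. The other 11 did not pass in the pooled comparison, from Cd5l (0.79, adjusted p = 0.0531) to Clec4f (0.22) and Fcna (-0.35). The 13 listed markers summed to 495 to 725 CPM with AS-703026 and 318 to 699 CPM in the others, which overlap. Of 9 stellate and fibroblast markers, the small proteoglycans Lum (1.40 ± 0.26) and Dcn (0.51 ± 0.10) were higher, while Col1a1, Col1a2 and Col3a1 did not pass. No marker of sinusoidal endothelium passed (0 of 11 tested). In bulk tissue a change in the number of cells of a type and a change in RNA per cell cannot be told apart, and the part of these cell types in the other results was not tested.

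Lysosomal proteases formed a smaller group. Of 41 autophagy and lysosome genes 4 were higher (9.76%, beside 2.91% of all genes) and none lower, while the list median was 0.02. Ctsc, the dipeptidyl peptidase that activates granule proteases, read 172, 92.4, 166 and 127 CPM with AS-703026 and 40.6 to 87.8 CPM (median 55.1) in the others (1.29 ± 0.21, adjusted p = 0.00204). Grn, or progranulin, was higher by 0.74 ± 0.11 and Ctsb, cathepsin B, by 0.47 ± 0.09, both without overlap. Ctsl, cathepsin L (0.51 ± 0.11), overlapped and did not pass without AS-703026 replicate 1 or 3. The autophagosome genes Becn1 (-0.17), Map1lc3b (0.17) and Sqstm1 (0.06) did not pass.

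The genes listed for antigen presentation and for interferon did not move together. Of 15 tested class I and immunoproteasome genes 3 were higher. The immunoproteasome subunits Psmb8 and Psmb10 lost their calls without AS-703026 replicate 1 or 4, which left 1 higher (and 1 other gene lower without replicate 1), and against GDC-0941 alone none of the 15 was higher and 1 was lower. H2-D1, a class I heavy chain, read 835, 926, 909 and 868 CPM with AS-703026 and 369 to 705 CPM in the others (0.83 ± 0.17, adjusted p = 0.00994). The UM-HET3 mice carry mixed class I haplotypes, and counts of such genes can depend on the allele. Among 26 listed interferon-induced genes only Zbp1, a sensor of nucleic acids, was called (1.49 ± 0.29, adjusted p = 0.00782), and the list median was -0.09. That call made 3.85% of the list, near the 2.91% of all genes higher. The list does not hold every such gene. Outside it, Ifitm1 (1.06), Ifitm2 (1.21), Ifitm3 (0.79) and Ube2l6 (0.70) were called higher, in all 12 fits with a library left out. Ifi27l2b (1.84) and Ly6e (0.74) were called too, but not in every such fit. These genes were picked after their values were seen, and others outside the list were not counted.

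Sterol synthesis genes were higher in part. Of 25 tested 5 were higher, none lower, with 22 of the 25 log2 differences positive. Pmvk, phosphomevalonate kinase, read 189, 103, 166 and 141 CPM with AS-703026 and 72.0 to 125 CPM (median 86.1) in the others, and AS-703026 replicate 2 overlapped (0.72 ± 0.14, adjusted p = 0.00783). Its log2 difference was 0.96 from GDC-0941 (adjusted p = 0.00674) and 0.49 from enzastaurin (adjusted p = 0.147). Hmgcs1, an early synthase of the pathway, had a log2 difference of 0.86 from GDC-0941 (adjusted p = 0.0135) and 0.33 from enzastaurin (adjusted p = 0.369). Both contrasts share the AS-703026 libraries, and the list median was 0.07 against enzastaurin and 0.48 against GDC-0941. Pmvk passed in all 12 fits with a library left out, and Acat2 and Hmgcs1 did not. The count of 5 was 2 without AS-703026 replicate 3, 3 without AS-703026 replicate 1 or GDC-0941 replicate 4, and 8 without GDC-0941 replicate 2.

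On the lower side, male-biased liver genes had the lowest median of the lists with more than 10 genes tested, -0.92, with 9 of 21 lower and none higher, beside 1.78% of all genes lower. Mup21 (chr4:62147932-62150863), a major urinary protein that binds pheromones, read 37.6, 139, 49.0 and 116 CPM with AS-703026 and 245 to 711 CPM (median 369) in the others, a log2 difference of -2.34 ± 0.36 (adjusted p = 0.0016). Hsd3b5, a steroid reductase of male liver, read 121, 366, 118 and 310 CPM against 531 to 926 CPM (-1.64 ± 0.29, adjusted p = 0.00391). Both genes were lowest in AS-703026 replicates 1 and 3 and separated the groups fully. Selenbp2, a selenium-binding protein, was lower with a log2 difference of -1.62 ± 0.33 (adjusted p = 0.0109), with 344 to 1166 CPM against 1253 to 3702 CPM. Elovl3, a fatty acid elongase, passed in the pooled comparison (-0.93 ± 0.20, adjusted p = 0.0143), but GDC-0941 livers reached down to 125 CPM and overlapped. Its difference from enzastaurin was -1.40 (adjusted p = 0.00406), and its difference from GDC-0941 was -0.47 (adjusted p = 0.329).

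The direction was shared by 19 of the 21, but not all of the family was low: Mup1 showed -0.12 and Mup20 -1.73, neither passing. The major urinary proteins are near-identical copies, so single members are uncertain. Female-biased genes were mostly too low to test in these males (5 of 20 tested), and none passed. In the growth hormone axis 2 of 16 tested were higher (12.5%, beside 2.91% of all genes), Igfbp1 and Prlr. The receptor Ghr (-0.31), Igf1 (0.14) and Stat5b (0.08) did not pass. Igfbp1, a binding protein raised in fasting and stress, read 77.4, 14.5, 223 and 14.9 CPM with AS-703026 and 1.92 to 28.9 CPM in the others, so that replicates 2 and 4 overlapped. Its log2 difference of 3.03 ± 0.61 (adjusted p = 0.00891) was 1.79 without replicate 3, where it no longer passed (adjusted p = 0.111). Prlr (0.58 ± 0.12, adjusted p = 0.0112) also missed the threshold without replicate 3, which left 0 of the 2.

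Enzymes that conjugate and clear drugs and steroids were lower. In the list of glucuronidation, sulfation and ester hydrolysis 10 of 27 tested were lower and none higher, and 26 of the 27 log2 differences were negative (median -0.46). Ugt2b1, a UDP-glucuronosyltransferase that is also male-biased, read 683, 1052, 689 and 1026 CPM with AS-703026 and 1447 to 2533 CPM (median 1840) in the others (-1.14 ± 0.18, adjusted p = 0.00188). Sult1b1, a sulfotransferase of thyroid hormone and phenols, was lower with a log2 difference of -0.93 ± 0.18 with 1 overlapping library, and Ugt2b5 with one of -0.53 ± 0.11 without overlap. The other 7 were Ugt2b36 and the carboxylesterases Ces1e, Ces1f, Ces1g, Ces2e, Ces3a and Ces3b, between -0.45 and -0.91. Of the 10, Ugt2b1, Ugt2b5 and Sult1b1 passed in all 12 fits with a library left out, and 5 passed without AS-703026 replicate 1 and 3 without replicate 3. The Ugt2b and Ces genes are clusters of close copies, and reads may be split within each.

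Xenobiotic cytochrome P450 genes had a median of -0.41 over 33 tested, with 6 lower and 3 higher. Cyp2d22 read 138, 150, 168 and 140 CPM with AS-703026 and 195 to 275 CPM (median 245) in the others (-0.72 ± 0.10, adjusted p = 0.00096), and it was the one of the 9 that passed in all 12 fits. Cyp2d9, a male-biased steroid hydroxylase, read 1309, 2626, 1700 and 2113 CPM against 2985 to 3903 CPM (-0.79 ± 0.16, adjusted p = 0.0108) and missed the threshold without AS-703026 replicate 3. Of the lower calls 3 were left in number without AS-703026 replicate 1 and 2 without replicate 3, and there were 10 without replicate 2. The number of higher calls was 1 without any one AS-703026 library or GDC-0941 replicate 2 or 3, and 0 without enzastaurin replicate 2, 3 or 4. Por, the reductase that feeds electrons to all microsomal P450 enzymes, was higher by 0.50, and so were Cyp3a13 (1.40) and Ahr (0.55), the receptor for dioxin. Cyp1a2 (-0.76) and Cyp2b10 (-1.89), induced through the receptors AhR and CAR, did not pass.

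Glutathione transferases followed the same direction. Among 26 genes of glutathione metabolism and NRF2 targets 7 were lower and none higher, with a median of -0.19. Gsta2 read 8.74, 50.8, 29.1 and 25.3 CPM with AS-703026 and 61.0 to 172 CPM (median 100) in the others (-2.05 ± 0.38, adjusted p = 0.00577), and Gsta4 122, 181, 139 and 208 CPM against 218 to 333 CPM (-0.76 ± 0.15, adjusted p = 0.00788). Gstm1, one of the most abundant of them at 2577 to 3319 CPM against 3504 to 5839 CPM, was lower with a log2 difference of -0.57 ± 0.14 (adjusted p = 0.0318). The count of 7 fell to 3 without AS-703026 replicate 1, to 2 without replicate 3, and to 3 and 4 without GDC-0941 replicates 3 and 4. The NRF2 targets Nqo1 (0.19), Srxn1 (-0.00) and Hmox1 (0.26) did not pass. The transferases named here have close paralogs.

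**Figure D3:**
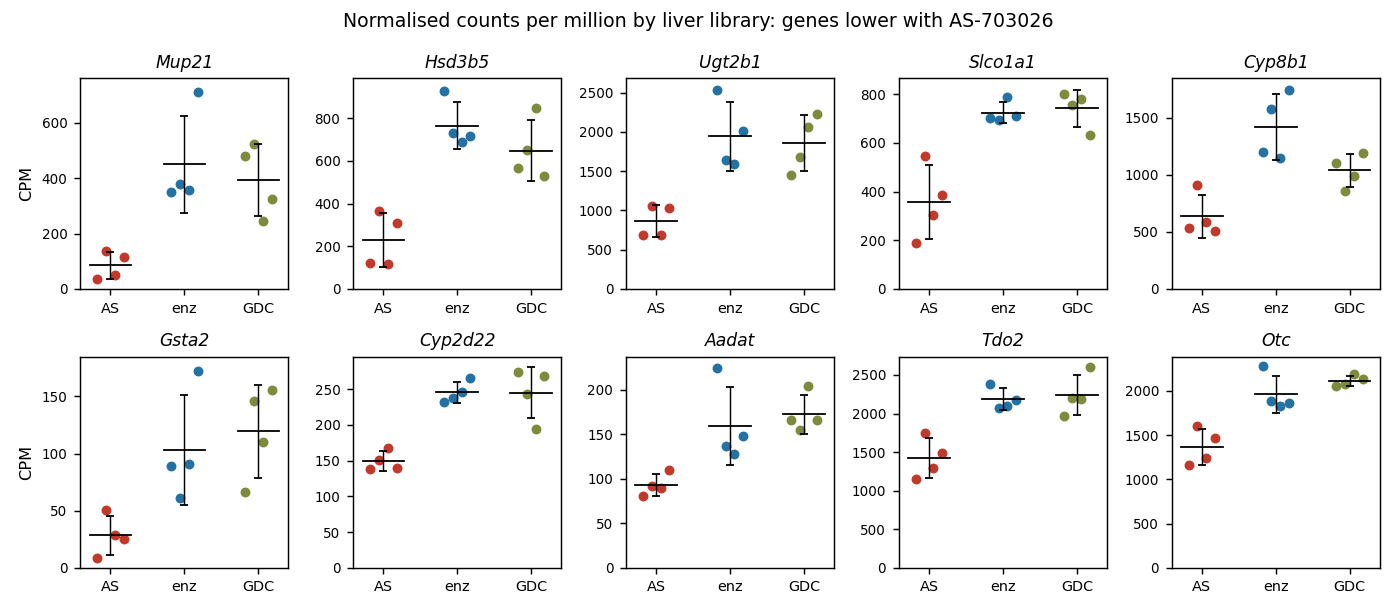
Normalised CPM (y axis, from 0) of 10 genes in each liver library, by compound (AS, AS-703026; enz, enzastaurin; GDC, GDC-0941). Points are the 4 libraries of a group, the bar is their mean and the whiskers are 1 SD. The AS-703026 points lie below all 8 others in each panel except that of Cyp8b1, where replicate 2 at 913 CPM overlaps with GDC-0941.

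Of 25 listed genes of bile acid synthesis and transport 5 were lower and none higher (median -0.28), 4 of them enzymes and 1 a transporter. Cyp7a1, the rate-limiting enzyme of bile acid synthesis, read 51.2, 90.6, 85.2 and 30.2 CPM with AS-703026 and 95.5 to 172 CPM (median 130) in the others, a log2 difference of -1.02 ± 0.24 (adjusted p = 0.0265). The groups did not overlap, but without AS-703026 replicate 1 it no longer passed (adjusted p = 0.104). Cyp8b1, the hydroxylase that makes cholic acid, read 534, 913, 587 and 511 CPM against 864 to 1746 CPM (-0.94 ± 0.17, adjusted p = 0.00541). Acox2, which shortens the bile acid side chain, was lower with a log2 difference of -0.56 ± 0.10 (adjusted p = 0.0041), and Cyp7b1, the oxysterol hydroxylase of the alternative route, with one of -0.77 ± 0.18 (adjusted p = 0.0206). Cyp7b1 lost its call without AS-703026 replicate 1, 3 or 4. Slco1a1, an uptake transporter of organic anions, read 188, 547, 303 and 388 CPM against 633 to 799 CPM (-1.05 ± 0.20, adjusted p = 0.00768). It and Cyp7b1 are also in the male-biased list. Without AS-703026 replicate 1 the count of lower genes was 3. The exporter Abcb11 (0.08), the uptake transporter Slc10a1 (-0.18) and the bile acid receptor Nr1h4 (-0.34) did not pass.

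Few genes of amino acid breakdown passed. In the list of serine, histidine, branched-chain and other amino acid breakdown 3 of 29 tested were lower (10.3%) and none higher. Over all genes 1.78% were lower. Of these 29 log2 differences 24 were negative (median -0.25). Of the 3 calls 1 passed in all 12 fits with a library left out. Tdo2, which opens the tryptophan ring, read 1147, 1744, 1290 and 1492 CPM with AS-703026 and 1968 to 2603 CPM (median 2183) in the others (-0.64 ± 0.12, adjusted p = 0.00739). Aadat, a transaminase of kynurenine and aminoadipate, read 80.9, 91.5, 90.0 and 110 CPM against 128 to 225 CPM (-0.83 ± 0.15, adjusted p = 0.00495). These were 2 of 18 tested genes of aromatic amino acid breakdown, and Tat, Hpd and Hgd did not pass. Without enzastaurin replicate 2 the count was 4. Otc, the urea cycle's carbamoyl transferase, read 1162, 1598, 1239 and 1464 CPM against 1832 to 2278 CPM (-0.58 ± 0.11, adjusted p = 0.00695). It was the only one of 15 urea and ammonia genes that passed (6.67%, beside 1.78% of all genes lower). Etnppl, an ethanolamine-phosphate lyase of periportal hepatocytes, was lower with a log2 difference of -1.24 ± 0.21 (adjusted p = 0.00299).

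One-carbon genes went in both directions, 2 higher and 3 lower of 28 (17.9% called, beside 4.69% of all genes). Mat1a, which makes S-adenosylmethionine, read 2367, 2310, 2912 and 2253 CPM with AS-703026 and 1315 to 2070 CPM in the others (0.59 ± 0.10, adjusted p = 0.00428). Its log2 difference was 0.78 from enzastaurin (adjusted p = 0.00357) and 0.39 from GDC-0941 (adjusted p = 0.107). Gcsh, the lipoyl carrier of the glycine cleavage system, read 69.1, 71.6, 64.4 and 67.4 CPM against 120 to 137 CPM in 7 of the other libraries and 70.9 CPM in GDC-0941 replicate 2 (-0.84 ± 0.14, adjusted p = 0.00262). Nnmt, which methylates nicotinamide, was higher by 2.25. The number of higher calls was 1 without AS-703026 replicate 1 or 3, enzastaurin replicate 2, 3 or 4, or GDC-0941 replicate 1, 2 or 4, and the number of lower calls was 1 without enzastaurin replicate 2 or GDC-0941 replicate 4.

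Fat oxidation genes were lower only in a few members. Of the 32 PPAR alpha targets and fatty acid oxidation genes tested 24 had negative log2 differences (median -0.25). In this list 4 passed, all lower (12.5%, beside 1.78% of all genes). The count was 2 without AS-703026 replicate 1 and 1 without replicate 3. Acadm, the medium-chain acyl-CoA dehydrogenase, read 151, 185, 190 and 187 CPM against 205 to 275 CPM (-0.44 ± 0.09, adjusted p = 0.00974) and passed in every fit with a library left out. Acot1, an acyl-CoA thioesterase, was lower with a log2 difference of -1.36 ± 0.30 (adjusted p = 0.0165) but not past the threshold without AS-703026 replicate 3. Cpt1a (-0.05) and Cyp4a14 (2.02) did not pass. G0s2, an inhibitor of the triglyceride lipase ATGL, read 11.8, 10.9, 3.70 and 11.8 CPM against 16.9 to 91.0 CPM (-2.14 ± 0.35, adjusted p = 0.00245). In fatty acid synthesis 1 of 20 passed, and in glycolysis Ldha, lactate dehydrogenase A, was higher by 0.72 ± 0.12 (adjusted p = 0.00343), the only call among 21. These shares, 5% and 4.76%, were near the 4.69% of all genes called.

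ERK feedback genes, the readout closest to the target of the drug, gave 1 call among 13 tested (7.69%, beside 4.69% of all genes). Of 13 tested ERK feedback and immediate early genes 1 passed, the ephrin receptor Epha2, lower at 3.06, 1.81, 1.14 and 2.78 CPM against 3.31 to 8.12 CPM (-1.23 ± 0.33, adjusted p = 0.0481). It had enough counts to test only through the livers of the other compounds, so the filter favoured a lower call. It missed the threshold in 10 of the 12 fits with a library left out, and only the fits without enzastaurin replicate 2 or 3 kept it. Without AS-703026 replicate 4 the list had 2 other genes higher and 1 other lower. Etv5 (-0.50), Ier2 (-0.38) and Spred1 (0.49) did not pass, nor did Fosl2 (1.33) and Jun (1.26). Dusp6 (-0.34), Spry4 (-0.78) and Egr1 (-0.79), well-known ERK targets picked here after their values were seen, did not pass either. The other 13 of the 26 listed, among them Spry2, Dusp4, Ccnd1 and Myc, were too low to test.

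Several large gene groups showed no call at this depth. None of 65 tested cytosolic ribosomal protein genes, 69 mitochondrial ribosomal protein genes, 28 ER chaperone and unfolded protein response genes, 44 genes of translocation and ER export, 18 heat shock genes, 31 splicing factors or 13 cell cycle genes passed by edgeR. Nuclear-encoded oxidative phosphorylation genes had 2 lower of 78 (2.56%), beside 1.78% of all genes lower. That count was 0 to 1 in 10 of the 12 fits with a library left out, and 4 without AS-703026 replicate 2. Of the 78 log2 differences 59 were negative (median -0.105). For 6 of the 78 the AS-703026 libraries lay wholly below the 8 others, beside 1.71% of all genes. Txn2, the mitochondrial thioredoxin, was lower and even, at 210, 222, 220 and 212 CPM against 253 to 323 CPM (-0.39 ± 0.07, adjusted p = 0.00534).

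Outside the lists stood 291 of the 445 called genes. Isyna1, which makes inositol phosphate from glucose 6-phosphate, read 354, 21.8, 89.7 and 50.7 CPM with AS-703026 and 7.03 to 10.8 CPM (median 9.19) in the others. Its log2 difference of 3.81 ± 0.50 (adjusted p = 0.000435) was 2.60 without AS-703026 replicate 1. Dnajc12, a co-chaperone of the aromatic amino acid hydroxylases, read 353, 30.8, 336 and 119 CPM against 16.2 to 30.3 CPM (3.11 ± 0.40, adjusted p = 0.000435), and its lowest AS-703026 library, replicate 2, lay just above the highest of the others. Among lower genes, Cela1, a chymotrypsin-like elastase, read 22.3, 45.3, 21.9 and 43.4 CPM against 64.6 to 96.0 CPM (-1.36 ± 0.20, adjusted p = 0.00096). Aox3, an aldehyde oxidase, and Tsc22d1, a leucine zipper factor, were lower with log2 differences of -1.11 ± 0.21 and -1.26 ± 0.25.

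Against each compound alone, AS-703026 differed from enzastaurin in 281 genes (2.96%, with 183 or 1.93% higher and 98 or 1.03% lower) and from GDC-0941 in 306 (3.22%, with 194 or 2.04% higher and 112 or 1.18% lower). These comparisons share the AS-703026 libraries, and both counts were lowest without AS-703026 replicate 3, at 124 and 148, and highest without replicate 2, at 359 and 456. Without AS-703026 replicate 1 they were 172 and 156, without enzastaurin replicate 4 the first was 145, and without GDC-0941 replicate 4 the second was 193. Fgl1 was higher by 4.30 against enzastaurin and 4.76 against GDC-0941, Mt2 by 5.87 and 5.12, and Mup21 lower with -2.43 and -2.24. The coagulation list had 9 higher against enzastaurin and 10 against GDC-0941, and the male-biased list 9 and 5 lower. Enzastaurin and GDC-0941 differed from each other in 0 genes (0%, edgeR; 762 at an unadjusted p under 0.05, lowest adjusted p 0.226), with 18 genes by DESeq2, 0 by limma voom and 15 when only their 8 libraries were fitted. Among the 445 genes the median absolute log2 difference was 0.82 for AS-703026 against the pool and 0.17 between enzastaurin and GDC-0941. The 445 were selected for the first of these differences, so the gap between the medians was favoured in advance. A p that misses the threshold does not show that these 2 compounds act alike.

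In kidneys of mice on the same 3 diets (12 libraries, 4 per compound), AS-703026 differed from the other 2 compounds in 246 genes (2.01%, with 179 or 1.46% higher and 67 or 0.546% lower). Neither that count nor its direction was stable. It was 12 to 113 without kidney AS-703026 replicate 2 or 4, enzastaurin replicate 2, 3 or 4, or GDC-0941 replicate 2 or 4, and 403 to 820 without AS-703026 replicate 1, enzastaurin replicate 1, or GDC-0941 replicate 1 or 3. Lower genes outnumbered higher ones without AS-703026 replicate 4 (4 higher and 8 lower), with the share of satellite-like models as a covariate (1 and 21) and with a replicate block (5 and 8). The satellite-like share in those kidney libraries ran from 0.0350% to 29.0%. Kidney enzastaurin replicate 1 also held liver transcripts, with Alb at 483 CPM against at most 5.4 CPM in the other kidney libraries, and without it the count was 403. The next test took the 24 libraries of both organs as independent, and whether livers and kidneys came from the same animals was not examined. The difference between liver and kidney was tested directly, and 53 of 12262 genes passed (0.432%). Of these 28 (0.228%) had a more positive and 25 (0.204%) a more negative difference in liver. That count was 25 to 34 without liver AS-703026 replicate 1 or 3, liver enzastaurin replicate 4, or kidney AS-703026 replicate 2 or 4, enzastaurin replicate 3 or 4, or GDC-0941 replicate 2, and 89 and 99 without kidney AS-703026 replicate 1 and GDC-0941 replicate 3. Each gene named for this test passed in all 24 fits that left out 1 library, except Fgl1, which did not pass with all of them. Mt1 and Mt2 were among them: in kidney Mt1 read 100 to 137 CPM with AS-703026 and 85.2 to 221 CPM in the others, and the liver difference exceeded the kidney one by 4.66 ± 0.74 (adjusted p = 0.00214). For Mt2 the excess was 5.82 ± 0.93 (adjusted p = 0.00214). Dnajc12 was abundant in kidney under each compound, at 196 to 326 CPM with AS-703026 and 220 to 441 CPM in the others, and the excess was 3.60 ± 0.51 (adjusted p = 0.000551).

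Il13ra1, a receptor chain for interleukin 13, had the smallest p of this test. It was higher with AS-703026 in liver, at 63.4, 37.2, 47.6 and 49.6 CPM against 15.7 to 24.3 CPM, and lower in kidney, at 17.9 to 26.0 CPM against 27.3 to 50.9 CPM. The excess was 2.03 ± 0.23 (adjusted p = 6.12e-05). Atp11a, a phospholipid flippase (2.47 ± 0.31, adjusted p = 0.0002), and Slc41a2, a magnesium transporter (2.07 ± 0.28, adjusted p = 0.000271), also had a more positive difference in liver. Etnppl went the other way, with an excess of -1.82 ± 0.32 (adjusted p = 0.00531). For Fgl1, with a log2 difference of 4.53 in liver and 1.28 in kidney (adjusted p = 0.337), the difference between organs did not pass (adjusted p = 0.103).

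**Figure D4:**
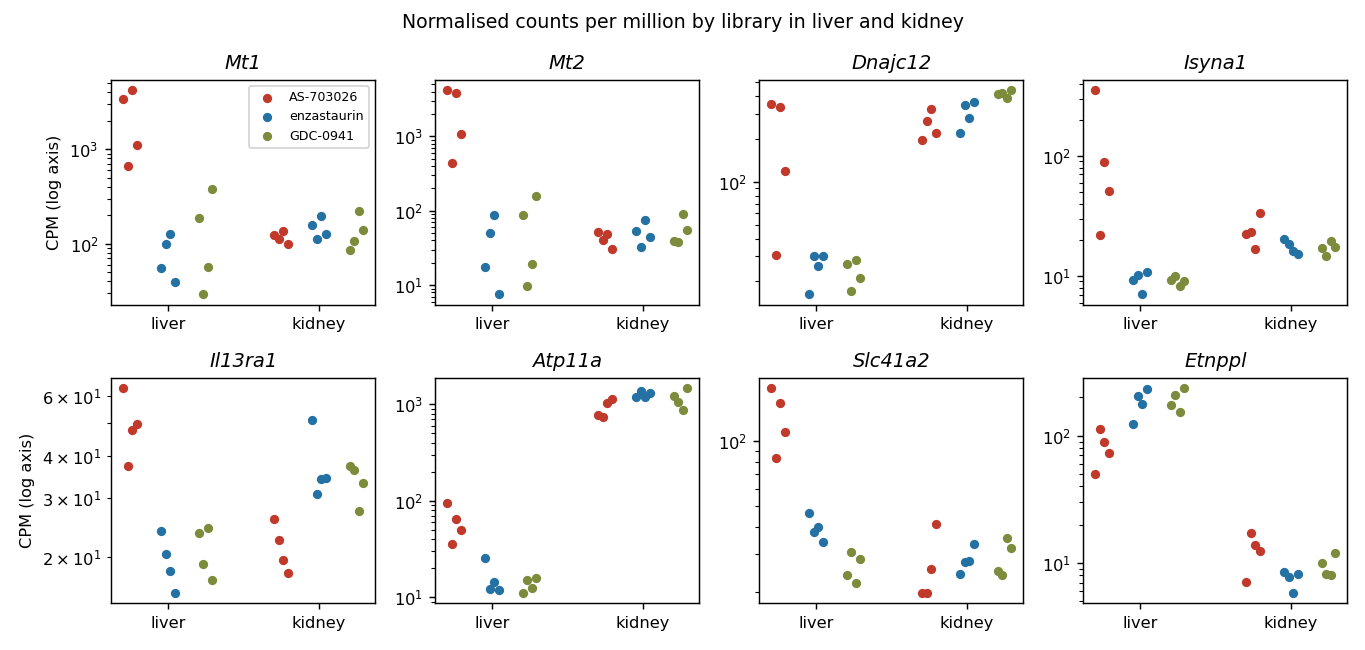
Normalised CPM (y axis, log scale) of 8 genes in the 12 liver and 12 kidney libraries, coloured by compound; each point is 1 library. In liver the AS-703026 points stand above the others for the first 7 genes and below them for Etnppl, and in kidney the Il13ra1 points of AS-703026 lie below the others.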

How the data were processed

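The deposited table holds raw counts per gene, which the authors made from CEL-seq reads with bcl2fastq 1.8.4, Trimmomatic 0.32, STAR 2.5.2b, featureCounts 1.5 and the mm10 build, per the submitters' processing notes. For the annotation release, strand setting and collapsing of molecular identifiers: not given in the sources used here. Columns were matched to samples by title. Genes were tested with edgeR 4.0.16 quasi-likelihood in R 4.3.3 (TMM scaling, filterByExpr, Benjamini-Hochberg adjustment, threshold 0.05) in 1 liver fit of 12 libraries, and in 1 fit of 24 libraries for liver against kidney. An SE is the log2 difference over the root of its F. DESeq2 1.42.0, limma 3.58.1 voom, RLE scaling, no filter, a replicate block, a satellite-like covariate and leaving out each library were alternatives. Genes were named from the 15 largest passing differences in each direction with no overlap and at least 5 CPM, from each list's 6 smallest p-values (10 where more passed), from the 12 smallest p-values for liver against kidney, and from the 6 smallest for enzastaurin against GDC-0941. Some genes that the rule picks are not reported here. Some genes that did not pass are named from the lists after their values were seen. Slc10a2 and some interferon-induced genes outside the lists were also named after their values were seen. The comparison and the gene lists were chosen with earlier results of these data known. On simulated data the liver fit recovered 68% of 2-fold and 94% of 4-fold changes in 9345 genes, with 4.71% false calls. No pair of replicates was a duplicate. Promoter sequences are from RefSeq (GRCm38.p6), with gene positions from GENCODE M21. A set of 87 genes, which leaves out some genes named in the text, was followed through the alternatives, and 67 of the 87 had a promoter entry.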

Additional observations from a re-analysis of the deposited data

Results flagged for a closer look

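In 17 of 261 groups of 4 liver libraries (87 genes, 3 compounds) 1 library stood apart from its group by Dixon's test, and chance alone flags about 1 in 20. With AS-703026, replicate 2 stood apart for Slc39a14 (75.2 CPM), replicate 4 for Ctsb (767 CPM), Hbb-bt (1462 CPM) and Hbb-bs (4858 CPM), replicate 1 for Acadm (151 CPM) and replicate 3 for G0s2 (3.70 CPM). With enzastaurin, replicate 1 stood apart for Nfkbiz (9.20 CPM), Ctsl (437 CPM), Otc (2278 CPM) and Aox3 (730 CPM), and replicate 4 for Mup21 (711 CPM). With GDC-0941, replicate 1 stood apart for F10 (232 CPM), Il1r1 (7.99 CPM) and Cyp3a25 (1009 CPM), replicate 2 for Gcsh (70.9 CPM), and replicate 3 for Serpina10 (259 CPM) and Prtn3 (0 CPM).

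For 11 named genes the difference between AS-703026 and the other 2 compounds itself differed between liver and kidney, by edgeR's test of that difference. The liver difference exceeded the kidney one, on the log2 scale, by 2.03 for Il13ra1, 2.47 for Atp11a, 2.07 for Slc41a2, 1.79 for Tmem176a, 3.60 for Dnajc12, 1.95 for Steap2, 4.66 for Mt1, 5.82 for Mt2 and 3.31 for Isyna1. It was more negative in liver for Aatk (-4.43) and Etnppl (-1.82). Aatk read 0.437 to 1.74 CPM with AS-703026 and 3.64 to 10.8 CPM in the other livers.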

How the results depend on the processing

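None of the 87 genes followed through the alternatives changed sign under any run. Other genes named in the text, such as Nnmt, Por and Fn1, are not among the 87. Counts within 1.5 times of those reported are left out here, except for the block. Without a filter on low counts the calls were 876 for AS-703026 against the pool (154 in the gene lists became 255), 673 against enzastaurin, 769 against GDC-0941, 207 between enzastaurin and GDC-0941, 1635 in kidney and 367 for liver against kidney. With the share of satellite-like models added as a covariate they were 18 (9 in the lists), 1, 22, 0, 22 and 10. Of the 87 genes 7 still passed in liver: Fgl1, Socs3, Nfkbiz, S100a9, Lcn2, Atp11a and Slc41a2. The share and the compound cannot be told apart. DESeq2 gave 18 between enzastaurin and GDC-0941, 418 in kidney and 144 for liver against kidney, and voom gave 637 in kidney. Fitting only the 2 groups gave 186 against enzastaurin and 15 between enzastaurin and GDC-0941. Leaving out 1 library gave 224 to 525 against the pool, 88 to 175 in the lists, 124 to 359 against enzastaurin, 148 to 456 against GDC-0941, 0 to 1 between enzastaurin and GDC-0941, 12 to 820 in kidney and 25 to 99 for liver against kidney. The share of higher genes against the pool was 62% as reported, 83.3% with the covariate and 70.1% without AS-703026 replicate 3. In kidney it was 72.8% as reported, 4.55% with the covariate, 38.5% with the block, 33.3% without AS-703026 replicate 4 and 86.1% without the filter. For liver against kidney it was 52.8%, 80%, 76.9%, 74.2% and 35.7% in the same order. Deviations of same-numbered libraries from their group means correlated by -0.177 to 0.149 within liver and -0.324 to 0.2 within kidney. Differently numbered kidney libraries reached -0.469 and 0.475. These values gave no sign of pairing by number within an organ, but with 4 libraries per group they cannot exclude it. Pairing between organs was not examined. With the replicate number as a block the calls were 345 against the pool, 199, 262, 0, 13 in kidney and 26 for liver against kidney. Among the 87 genes C4b, Hmgcs1 and Cyp7b1 lost theirs. Other losses among these were Epha2 under DESeq2, Igfbp1 and Epha2 under voom, and Hmgcs1 and Elovl3 with enzastaurin and GDC-0941 as 1 group. Of the 11 genes named for liver against kidney 8 lost their call with the covariate, all but Il13ra1, Atp11a and Slc41a2, and Isyna1 lost its under voom. The causes of these shifts were not tested.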
